A study of Mus musculus with 15 samples.

Results

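Spray-dried plasma protein (SDPP) and yellow mealworm (YMW) are 2 animal protein sources for feed and food, and the comparison described here set the intestinal epithelial cells given one of them directly against the cells given the other. It rests on 6 of the 15 arrays of the series, 3 for SDPP and 3 for YMW, chosen by their labels. SDPP is a powder made from pig blood plasma, and YMW is made from larvae of the beetle Tenebrio molitor. All groups came from duodenal organoids of female C57BL/6J mice aged 9 weeks, grown as confluent 2D monolayers in a medium with WNT3A, R-spondin, Noggin and EGF, and each monolayer had the soluble, undigested part of 1 source on its apical side for 6 h. The labels give the concentration as 4% w/v, while the methods also give a mass per volume that does not equal it, so the dose is uncertain, though nominally the same for both sources. The other groups, used here as levels beside the comparison, received casein (CAS), soybean meal (SBM) or DMEM as the medium control (MC), with 3 arrays each. RNA of 3 pooled wells made 1 sample. The methods name 3 mice, whose organoids were kept in separate cultures. The labels call the replicates biological but do not say which mouse or culture a replicate came from, so the p-values measure the spread between these samples. SDPP and YMW arrays may share donors, while the main fit treats all arrays as independent. The culture holds epithelium alone, with no blood supply, immune cells or digestive enzymes of the gut.

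Both sources bring an epithelium a mixture of proteins and small molecules rather than 1 agent. Enterocytes take up iron across the apical side through divalent metal transport, and dividing epithelial cells take it up from transferrin, the iron carrier of plasma, through the transferrin receptor. Iron-regulatory proteins bind the transferrin receptor mRNA and keep it stable when the cell is short of iron, and the prolyl hydroxylases that mark hypoxia-inducible factors (HIF) for destruction need oxygen and iron. NRF2 is a transcription factor that turns on glutathione and detoxifying enzymes when electrophiles or oxidants reach the cell, immediate early genes answer growth and stress signals within the hour, and BMP ligands drive Id genes, whose products hold back basic helix-loop-helix factors. The gene lists below follow these routes.

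Values are log2 intensities of Affymetrix mouse gene 1.1 ST arrays, 1 per gene for 18820 genes. A difference is the SDPP mean minus the YMW mean on that scale, tested with limma in 1 fit to the 12 arrays of the 4 protein sources. The study's threshold asks for a fold change of 1.5 or more together with an unadjusted p under 0.05, and adjusted p-values are Benjamini-Hochberg values over all genes. Background, a log2 level of 3.91, is the 95th percentile of the smell receptor genes, and 12880 genes lay above it. A gene was counted as above background by its mean over all arrays of the series, MC included. The culture carried the markers of its label, since 26 of 27 mature enterocyte markers, 17 of 17 crypt base stem cell markers, 12 of 13 goblet cell markers and 13 of 14 Paneth cell markers were above background. The mean level of the fibroblast, immune and endothelial lists was between 3.87 and 4.27 in every array of the series, next to background. By the same count as above, 9 of 13 fibroblast and muscle, 4 of 10 immune and 3 of 8 endothelial markers were above background.

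Between SDPP and YMW, 24 genes passed the study's threshold, which is 0.128% of those tested. Of these, 18 were higher with SDPP (0.0956%) and 6 with YMW (0.0319%). No gene reached an adjusted p under 0.05 (0%), beside 933 genes with an unadjusted p under 0.05 in limma (4.96%), 371 of them higher with SDPP (1.97%) and 562 with YMW (2.99%). A share of 4.96% is about what an unadjusted p under 0.05 gives when no gene differs. At an unadjusted p under 0.001 the balance lay with YMW, with 24 genes higher there (0.128%) and 5 higher with SDPP (0.0266%). The same fit, with shared arrays, gave 49 genes past the threshold and 9 at an adjusted p under 0.05 for SDPP against CAS, and 21 and 0 for SDPP against SBM. YMW against CAS gave 53 past the threshold and 29 at an adjusted p under 0.05, and YMW against SBM 31 and 4. The count for SDPP against YMW was 10 with the MC arrays in the fit, 193 without SDPP replicate 3 and 89 without YMW replicate 1.

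**Figure D1:**
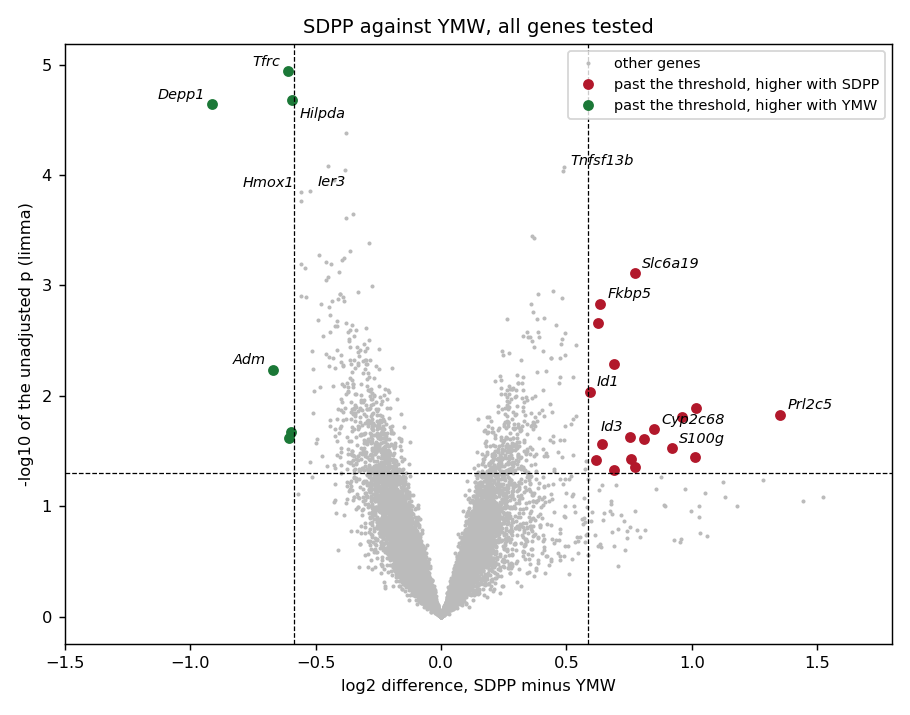
Log2 difference (SDPP minus YMW, x axis) against -log10 of the unadjusted limma p (y axis) for all 18820 genes tested, with dashed lines at the study's threshold. The 6 genes past it that were higher with YMW include the 3 with the smallest p among the labelled genes, Tfrc, Hilpda and Depp1, while most of the 18 higher with SDPP lie low on the p axis at larger differences.

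The genes described below fell into a few groups, and none of them reached an adjusted p under 0.05. Depp1, Tfrc, Hilpda and Adm were higher with YMW in every array, and members of the NRF2 and immediate early lists leaned the same way at smaller differences. Fkbp5, Id1 and Id3 were higher with SDPP in every array. A further 12 of the genes past the threshold, among them Prl2c5, Slc37a2 and the enterocyte marker S100g, were called higher with SDPP although SDPP replicate 3 was not above all YMW arrays. The largest difference towards YMW among the 24 genes was that of Depp1, and the largest towards SDPP was that of Prl2c5.

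Depp1 (probe set 10541071), a small protein induced by FOXO factors and progesterone that has been tied to autophagy and peroxisomes, stood at 6.04, 6.12 and 6.29 in the SDPP arrays and at 6.79, 7.37 and 7.02 in the YMW arrays. The groups did not overlap, and the CAS and SBM arrays, between 5.85 and 6.24, lay with SDPP. MC replicate 1 was high as well, at 6.89, while MC replicates 2 and 3 were at 5.75 and 5.83. The difference was -0.91 ± 0.14 (SE), a 1.88-fold higher level with YMW, with an unadjusted p of 2.28e-05 and an adjusted p of 0.143 in limma. Depp1 passed the threshold in all 16 alternatives that were run. Of the 22 measured FOXO targets in the list that holds it, Depp1 alone had an unadjusted p under 0.05 (4.55%, beside 2.99% of all genes). The list's median difference was 0.06.

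Tfrc (probe set 10435075), the transferrin receptor, was at 9.79, 9.74 and 9.74 with SDPP and at 10.53, 10.27 and 10.30 with YMW. All 3 SDPP arrays were below all of the other 12 arrays of the series, which ran from 9.99 in CAS replicate 1 to 10.53 in YMW replicate 1, so here SDPP was the group that stood apart. Such a position was held by 30 genes (0.159%). The difference was -0.61 ± 0.09 (SE), 1.53-fold, with an unadjusted p of 1.15e-05 and an adjusted p of 0.143. Without YMW replicate 1 the difference was -0.53, which is under 1.5-fold, and the call ended.

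Of the 20 measured iron handling genes, 2 had an unadjusted p under 0.05, Tfrc and Hmox1, both higher with YMW (10%, beside 2.99% of all genes), and Tfrc alone passed the threshold. The median of the list was 0.11 towards SDPP, 0.04 without SDPP replicate 1, 0.07 without YMW replicate 3 and 0.17 without YMW replicate 1. The importer Slc11a2 and the exporter Slc40a1, both enterocyte genes, had differences of 0.62 ± 0.44 (SE) and 0.32 ± 0.50 (SE) and did not pass the test. The ferritin genes Fth1 and Ftl1, whose products store iron, differed by 0.04 ± 0.10 (SE) and -0.13 ± 0.07 (SE), with unadjusted p of 0.689 and 0.102.

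Hilpda (probe set 10536794), a lipid droplet protein that inhibits triglyceride breakdown and is a target of HIF, was at 7.04, 7.16 and 6.84 with SDPP and at 7.63, 7.59 and 7.61 with YMW. The YMW arrays were above all of the other 12 arrays, whose highest was CAS replicate 3 at 7.21, and 111 genes (0.59%) held that position. The difference was -0.59 ± 0.09 (SE), 1.51-fold, at an unadjusted p of 2.09e-05 and an adjusted p of 0.143. Being so close to 1.5-fold, the call ended without SDPP replicate 3 (-0.51), without YMW replicate 1 (-0.58) and with array weights (-0.55).

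Adm (probe set 10556297), which encodes the peptide hormone adrenomedullin, was at 9.09, 9.42 and 8.86 with SDPP and at 10.03, 9.56 and 9.78 with YMW. Its YMW arrays too lay above the other 12 arrays, of which CAS ran from 9.03 to 9.39, SBM from 8.33 to 9.29 and MC from 8.37 to 8.81. The difference was -0.67 ± 0.20 (SE), 1.59-fold, with an unadjusted p of 0.00579 and an adjusted p of 0.844. The call ended without SDPP replicate 3 (-0.54), without YMW replicate 1 (-0.55) and with array weights (-0.55).

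Adm and Hilpda were the members of the HIF target list past the threshold, 2 of 30 measured, beside 0.0319% of all genes past it and higher with YMW. Both were known from earlier results of these data. At an unadjusted p under 0.05 there were 4 members, all higher with YMW, or 13.3% beside 2.99% of all genes. The other two, chosen after their values were seen, were Egln1, a prolyl hydroxylase that acts on HIF, at -0.25 ± 0.09 (SE), and Slc2a1, the glucose transporter GLUT1, at -0.18 ± 0.06 (SE). Slc2a1 was at 11.66, 11.73 and 11.70 with SDPP and at 11.89, 11.85 and 11.88 with YMW, and its YMW arrays were above all other arrays. Vegfa, which encodes an angiogenic growth factor, overlapped between the groups, at -0.18 ± 0.17 (SE) and an unadjusted p of 0.317. The median of the list was -0.09, beside -0.01 for all genes, and moved with single arrays, to -0.02 without SDPP replicate 3, -0.04 without YMW replicate 1, -0.15 without YMW replicate 2 and -0.16 without SDPP replicate 2.

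**Figure D2:**
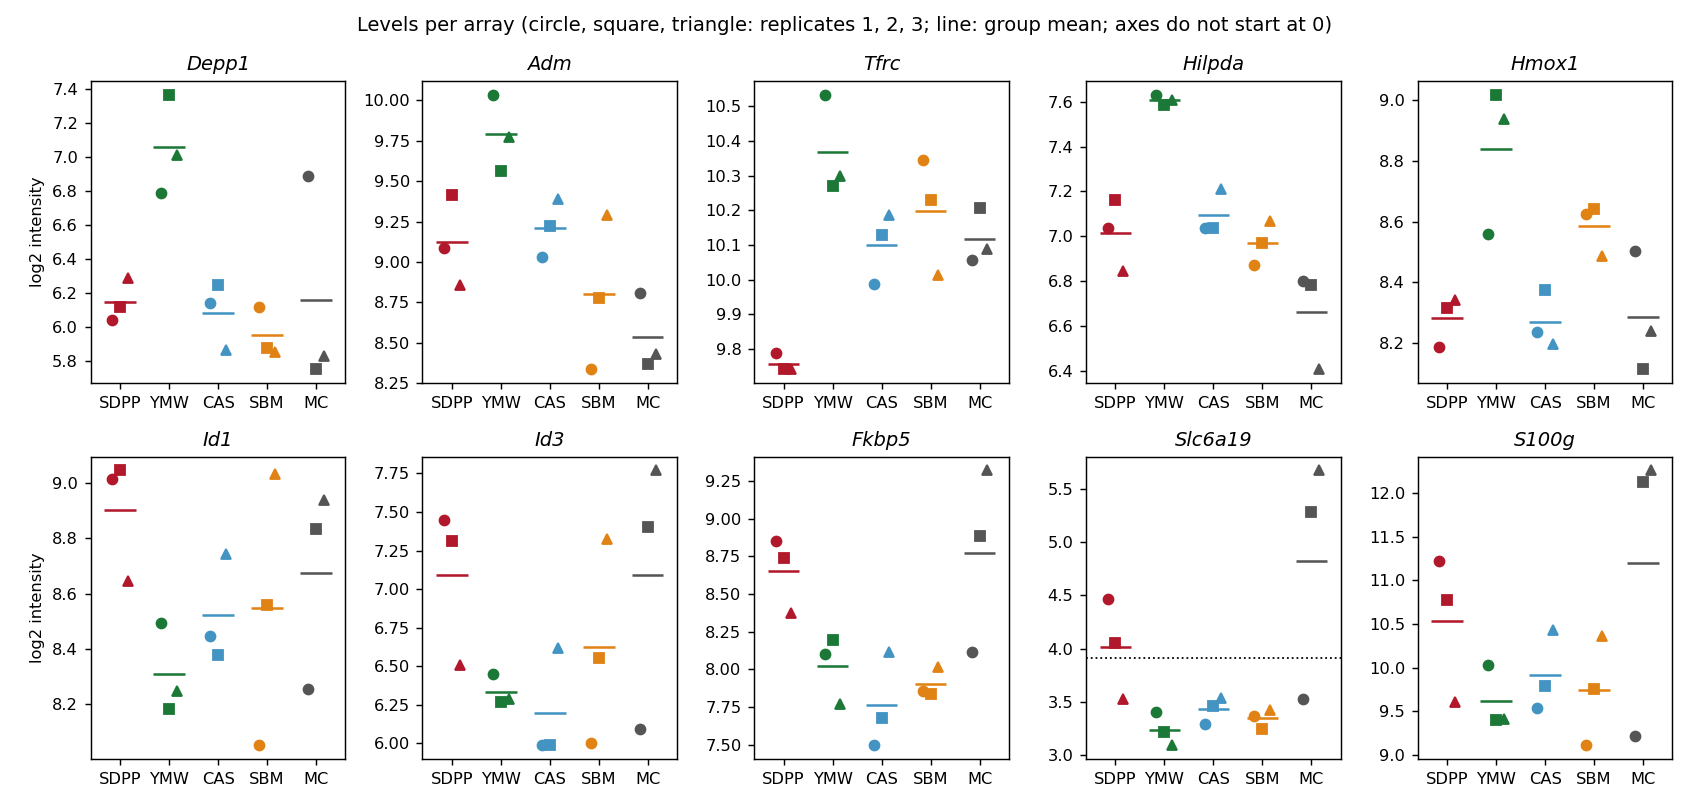
Log2 intensity (y axes, not starting at 0) of 10 genes in each array of the 5 groups (x axes), with circles, squares and triangles for replicates 1, 2 and 3, a line at the group mean, and a dotted line at background in the panel of Slc6a19. The YMW arrays of Hilpda lie between 7.59 and 7.63, above every other array, and the SDPP arrays of Tfrc lie between 9.74 and 9.79, below every other array, while S100g spreads within SDPP from 9.60 to 11.23.

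The promoters of Tfrc and Hilpda are shown as examples of windows that hold the HIF core motif. Both genes were higher with YMW and are known HIF targets, although Tfrc is not in the HIF list used here. Adm, a member of that list also higher with YMW, has a window without the motif and is not shown. Of the Hilpda windows, the one with the motif is shown. The windows run from 250 bases before to 50 bases after an annotated start, are from RefSeq on GRCm38.p6, plus strand, and read 5′ to 3′, with the HIF core motif ACGTG in capitals. The first is chr16:32608646-32608945 and the second chr6:29272376-29272675.
Tfrc: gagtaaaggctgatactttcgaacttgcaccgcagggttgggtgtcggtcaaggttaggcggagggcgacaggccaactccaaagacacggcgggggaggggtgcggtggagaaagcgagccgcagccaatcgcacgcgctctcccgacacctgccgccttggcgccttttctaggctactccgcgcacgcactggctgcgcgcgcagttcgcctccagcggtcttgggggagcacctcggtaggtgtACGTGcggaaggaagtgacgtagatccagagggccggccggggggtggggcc
Hilpda: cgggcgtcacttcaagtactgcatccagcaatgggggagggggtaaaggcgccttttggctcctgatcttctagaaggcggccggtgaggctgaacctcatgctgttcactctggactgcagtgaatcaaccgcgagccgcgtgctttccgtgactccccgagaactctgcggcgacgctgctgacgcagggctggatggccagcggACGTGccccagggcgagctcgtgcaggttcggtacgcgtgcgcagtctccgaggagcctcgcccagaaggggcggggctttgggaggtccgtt
The motif begins at position -2 from the start in Tfrc and at position -43 in Hilpda. A second annotated start of Tfrc, whose window overlaps the one shown, holds the same copy, and a second window of Hilpda, at chr6:29272238-29272537, holds none. Only 14 of the genes named here were looked up, chosen in part from earlier results of these data, and 12 have a window. The 12 are Depp1, Adm, Tfrc, Hilpda, Id3, Fkbp5, Cyp2c68, Ier3, Dusp1, Ddit4, Slc6a19 and S100g, while Id1 and Hmox1 have none. ACGTG, searched on both strands, was in the windows of 6 of the 12, which are Tfrc, Hilpda, Fkbp5, Ier3, Dusp1 and Ddit4. It was in those of 21.8% of the 27025 genes with a window. Depp1 and Adm have a window without it. GGCGCC, a GC element bound by SMAD1 and SMAD5, was in the windows of Tfrc, Hilpda and Dusp1 (13.4% of all genes), GTAAACA, a FOXO motif, in that of S100g (4.05%), and TGACGTCA, the cyclic AMP element, in that of Dusp1 (2.03%). TGAGTCA, an AP-1 motif, was in none of the 12 (5.95% of all genes), nor was the glucocorticoid receptor element (0.537%).

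NRF2 targets were the list with the largest share of members higher with YMW at an unadjusted p under 0.05, 8 of 22 measured, or 36.4% beside 2.99% of all genes, with none higher with SDPP. None passed the threshold and none reached an adjusted p under 0.05. Of the 22 members 5 had a positive difference, beside 46.5% of all genes, and the median was -0.19. Hmox1, heme oxygenase 1, which breaks down heme and releases its iron, was at 8.19, 8.32 and 8.34 with SDPP and at 8.56, 9.02 and 8.94 with YMW. Its groups did not overlap, the CAS arrays (8.20 to 8.38) lay with SDPP and the SBM arrays (8.49 to 8.64) in between. The difference was -0.56 ± 0.11 (SE), 1.47-fold, at an unadjusted p of 0.000144 and an adjusted p of 0.246, and it passed the threshold without SDPP replicate 3 (-0.59), without YMW replicate 1 (-0.70) and with array weights (-0.59).

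Cbr3, a carbonyl reductase, was at 7.13, 7.44 and 7.14 with SDPP and at 7.57, 7.71 and 7.66 with YMW, with no overlap and a difference of -0.41 ± 0.10 (SE, unadjusted p 0.00133). SBM, at 7.51 to 7.81, was as high as YMW, and CAS, at 6.98 to 7.10, was below both. The other 6 members, chosen after their values were seen, were Gclc, the catalytic subunit of the first enzyme of glutathione synthesis, at -0.31 ± 0.10 (SE), the glutathione transferases Gsta3 at -0.31 ± 0.12 (SE) and Gstm1 at -0.25 ± 0.07 (SE), Slc7a11, the cystine importer, at -0.30 ± 0.13 (SE), Nqo1, a quinone reductase, at -0.28 ± 0.12 (SE), and Gsr, glutathione reductase, at -0.13 ± 0.06 (SE). Txnrd1 and Srxn1, which serve thioredoxin and peroxiredoxin, had differences of 0.06 ± 0.07 (SE) and -0.07 ± 0.08 (SE) and did not pass the test. The mean level of the list was 9.27, 9.31 and 9.23 in the SDPP arrays and 9.40, 9.51 and 9.38 in the YMW arrays, without overlap. It was 9.10 to 9.22 in CAS, 9.40 to 9.45 in SBM and 9.35 to 9.40 in MC, so the SDPP arrays were also below the SBM and MC arrays and above the CAS arrays.

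Of 31 measured immediate early genes, 9 were higher with YMW (29%, beside 2.99% of all genes) and 1 with SDPP (3.23%, beside 1.97%) at an unadjusted p under 0.05, none of them past the threshold. Ier3, an early response gene that acts on cell survival, was at 9.47, 9.57 and 9.51 with SDPP and at 9.89, 10.05 and 10.17 with YMW, above the other 12 arrays. The difference was -0.52 ± 0.10 (SE), 1.44-fold, with an unadjusted p of 0.00014 and an adjusted p of 0.246, and it reached 1.5-fold without YMW replicate 1 (-0.59). Dusp1, a phosphatase that switches off MAP kinases, was at 9.39, 9.41 and 9.32 with SDPP and at 9.87, 9.88 and 9.84 with YMW. Its YMW arrays were above all others, while the SBM arrays spread from 8.83 to 9.53. Its difference was -0.49 ± 0.13 (SE), with an unadjusted p of 0.00207.

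The remaining 7 members higher with YMW were chosen after their values were seen. Btg2, an antiproliferative gene, was at 7.93, 7.99 and 7.92 with SDPP and at 8.36, 8.35 and 8.28 with YMW, a difference of -0.38 ± 0.07 (SE) at an unadjusted p of 9.07e-05. Gadd45b, a stress sensor, differed by -0.35 ± 0.07 (SE), and the transcription factors Atf3, Nr4a1, Jun and Egr1 by -0.41 ± 0.14 (SE), -0.34 ± 0.12 (SE), -0.30 ± 0.08 (SE) and -0.27 ± 0.13 (SE). The YMW arrays of Btg2, Gadd45b and Nr4a1 were above all other arrays, while those of Jun lay within the range of the CAS and SBM arrays, and Egr1 overlapped between SDPP and YMW. Dusp4, another MAP kinase phosphatase, differed by -0.25 ± 0.09 (SE) with overlap. Myc, the growth regulator, was the 1 member higher with SDPP, at 10.34, 10.19 and 10.47 against 9.92, 10.11 and 10.13, a difference of 0.28 ± 0.09 (SE). The median of the list was -0.05, and -0.12 to -0.05 on leaving out 1 array, the former without SDPP replicate 1. It was -0.11 without YMW replicate 1 and -0.09 without SDPP replicate 2, YMW replicate 2 or YMW replicate 3.

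**Figure D3:**
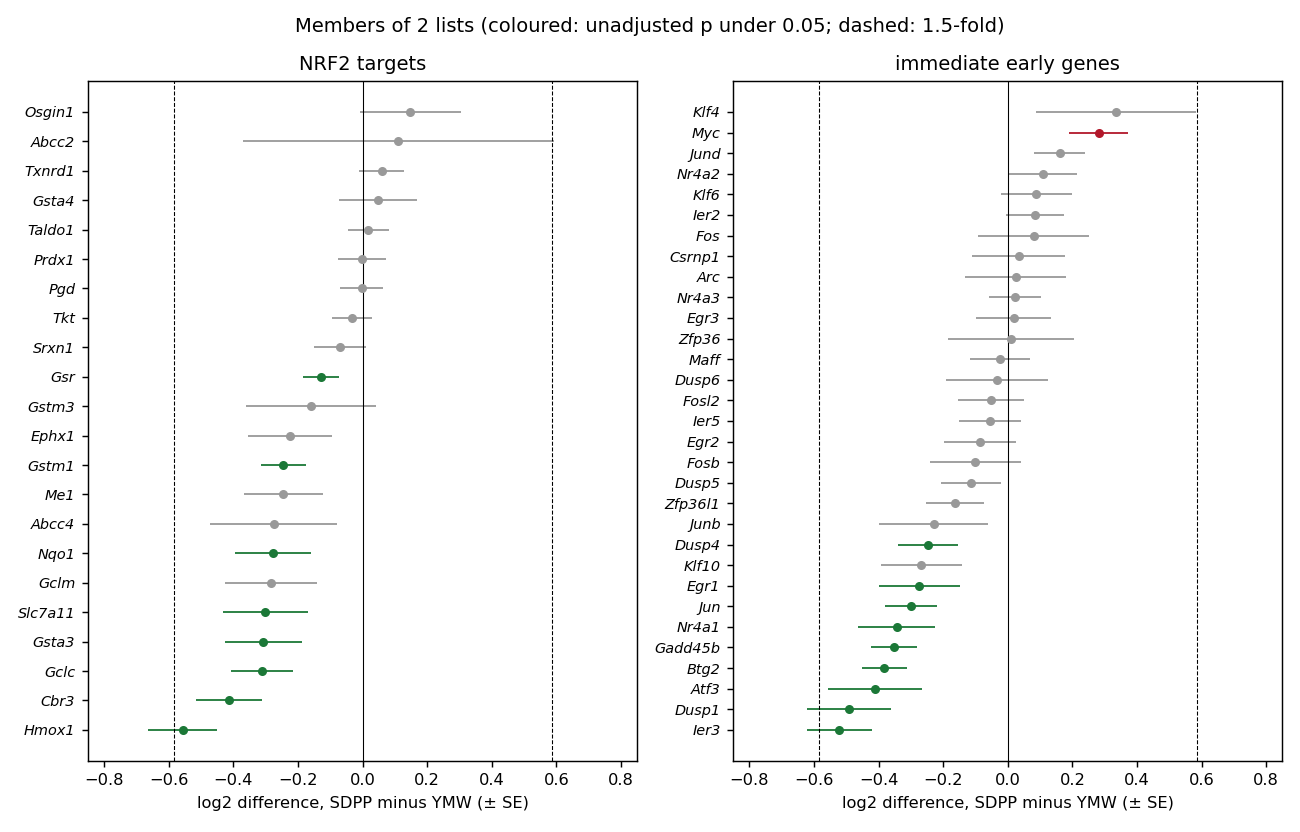
Log2 difference (SDPP minus YMW, x axes) with its SE for each measured member (y axes) of the NRF2 target list (22 genes) and the immediate early list (31 genes), coloured where the unadjusted p was under 0.05 and with dashed lines at 1.5-fold. Coloured points lie on the YMW side for 8 NRF2 targets from Hmox1 (-0.56) to Gsr (-0.13) and for 9 immediate early genes, with Myc alone on the SDPP side.

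Some stress lists held the same genes. Of 23 measured ATF4 and amino acid response genes, 4 were higher with YMW at an unadjusted p under 0.05 (17.4%, beside 2.99% of all genes) and none with SDPP. The differences were positive for 2 of the 23, beside 46.5% of all genes, with a median of -0.12. They were Nupr1, a stress-induced chromatin protein, at -0.33 ± 0.10 (SE), Sesn2, an inhibitor of mTORC1, at -0.28 ± 0.09 (SE), Slc3a2, the shared subunit of amino acid exchangers, at -0.19 ± 0.06 (SE), and Slc7a11, which is also in the NRF2 list. Asns and Trib3, textbook ATF4 targets, differed by -0.12 ± 0.07 (SE) and -0.14 ± 0.15 (SE) and did not pass the test. Of 18 p53 targets, 4 were higher with YMW (22.2%, beside the same 2.99%), which are Phlda3, Polk, and Btg2 and Sesn2 from the lists above. Phlda3, an inhibitor of AKT, was at 6.89, 6.54 and 6.62 with SDPP and at 7.24, 7.03 and 7.14 with YMW (-0.45 ± 0.11, SE, unadjusted p 0.000847), while the main p53 targets Cdkn1a and Mdm2 had unadjusted p of 0.217 and 0.373.

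Ddit4, an inhibitor of mTORC1 induced by stress, hypoxia and glucocorticoids, was at 10.49, 10.84 and 10.72 with SDPP and at 11.06, 10.97 and 11.11 with YMW. The groups did not overlap, and the CAS arrays, at 11.12 to 11.14, were above both. The difference was -0.37 ± 0.10 (SE) at an unadjusted p of 0.00307. Neither the unfolded protein response list (16 genes) nor the zinc and metallothionein list (12 genes) had a member with an unadjusted p under 0.05.

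Fkbp5 (probe set 10449452), a chaperone partner of the glucocorticoid receptor and one of its best known target genes, was at 8.85, 8.74 and 8.38 with SDPP and at 8.10, 8.20 and 7.77 with YMW. The groups did not overlap, and the CAS and SBM arrays, at 7.50 to 8.11, lay with YMW. MC replicate 1 was at 8.12 and MC replicates 2 and 3 were at 8.89 and 9.32, above every SDPP array. The difference was 0.63 ± 0.16 (SE), 1.55-fold, with an unadjusted p of 0.00147 and an adjusted p of 0.615. The call ended without SDPP replicate 1 (0.54) and without YMW replicate 3 (0.51).

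The other glucocorticoid-induced genes did not move as 1 group. Of 20 measured, 2 were higher with SDPP (10%, beside 1.97% of all genes) and 4 with YMW (20%, beside 2.99%) at an unadjusted p under 0.05, and the median was -0.06. The second gene higher with SDPP was Sgk1, a kinase that regulates sodium transport, at 0.47 ± 0.19 (SE) with overlap between the groups. The 4 higher with YMW were Dusp1, Ddit4, Gadd45b and Nfkbia, the first 3 of which are described above, and Nfkbia, the inhibitor of NF-kB, was at 9.39, 9.55 and 9.50 with SDPP and at 9.86, 9.75 and 9.74 with YMW (-0.30 ± 0.09, SE). Tsc22d3, Per1, Klf9 and Zbtb16, also textbook targets of the receptor, had unadjusted p of 0.203, 0.279, 0.217 and 0.158.

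Id1 (probe set 10477169) and Id3 (probe set 10509163), inhibitors of differentiation that BMP signals induce, were both higher with SDPP. Id1 was at 9.02, 9.05 and 8.65 with SDPP and at 8.50, 8.18 and 8.25 with YMW. Id3 was at 7.45, 7.31 and 6.51 with SDPP and at 6.45, 6.27 and 6.29 with YMW, so SDPP replicate 3 was only just above the YMW arrays. The difference was 0.59 ± 0.20 (SE) for Id1, 1.51-fold, at an unadjusted p of 0.00917 and an adjusted p of 0.954, and 0.76 ± 0.30 (SE) for Id3, 1.69-fold, at an unadjusted p of 0.0234 and an adjusted p of 0.958. SBM replicate 3 reached the SDPP levels of both genes, at 9.03 and 7.32, and MC replicate 3 was at 8.94 and 7.77. Each of the calls held in 11 of 16 alternatives, and both ended without SDPP replicate 1, SDPP replicate 2, YMW replicate 2 or YMW replicate 3, at differences of 0.52 to 0.56 for Id1 and 0.58 to 0.73 for Id3.

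Of 28 measured BMP and TGF-beta target and feedback genes, 4 were higher with SDPP at an unadjusted p under 0.05 (14.3%, beside 1.97% of all genes) and none with YMW (beside 2.99%). The median was 0.02, and -0.0045 to 0.08 on leaving out 1 array, lowest without SDPP replicate 2 and highest without SDPP replicate 3. The others, chosen after their values were seen, were Atoh8, a basic helix-loop-helix factor, at 0.48 ± 0.13 (SE) without overlap, and Tgfbi, a matrix protein, at 0.57 ± 0.26 (SE) with overlap. Id2, the related inhibitor, was at 9.71, 9.75 and 9.12 with SDPP and at 9.99, 9.44 and 9.62 with YMW, and its difference of -0.16 ± 0.22 (SE) had an unadjusted p of 0.49. The feedback inhibitors Smad6 and Smad7 differed by 0.10 ± 0.12 (SE) and 0.03 ± 0.19 (SE).

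Most of the remaining genes higher with SDPP split the arrays in 1 way. Of the 18 genes higher with SDPP, 12 had SDPP replicate 3 within or below the range of the YMW arrays, 17 had it as the lowest SDPP array, and 15 had YMW replicate 1 as the highest YMW array. MC replicates 2 and 3 were above all YMW arrays in 17 of the 18 genes, and MC replicate 1 lay within or below the YMW range in 16. Arrays of SDPP and YMW did not overlap for 5 of the 18, which are Fkbp5, Id1, Id3, Cyp2c68 and Slc6a19, beside 3.47% of all genes that were higher with SDPP without overlap. For the 6 genes higher with YMW it was 4, Depp1, Tfrc, Hilpda and Adm, beside 5.36%. Genes past the threshold were picked for a difference between these same arrays, so a larger share without overlap follows from that choice.

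The mature enterocyte list had the same order of arrays. Its mean level was 8.72, 8.33 and 7.21 in the SDPP arrays and 8.08, 7.33 and 7.23 in the YMW arrays. SDPP replicate 3 was thus at the level of YMW replicates 2 and 3, and YMW replicate 1 was between SDPP replicates 1 and 3. Of its 27 measured members 25 had a positive difference, beside 46.5% of all genes, and the median was 0.47. But 3 had an unadjusted p under 0.05 (11.1%, beside 1.97% of all genes) and 2 passed the threshold (beside 0.0956% of all genes). The median rested on single arrays, at 0.93 without SDPP replicate 3 and 0.83 without YMW replicate 1, and at 0.18 without SDPP replicate 1 and 0.29 without YMW replicate 3. The mean level was 7.16 to 8.21 in CAS, 7.08 to 8.03 in SBM, 7.28 in MC replicate 1, and 9.32 and 9.39 in MC replicates 2 and 3. Crypt base stem cell markers ran the other way within SDPP, at 8.46, 8.53 and 8.86, and at 8.52, 8.67 and 8.67 with YMW, with a median difference of -0.06. Fkbp5, Id1 and Id3 were also lowest of the SDPP arrays in replicate 3, and MC replicates 2 and 3 were above all their YMW arrays. The part of enterocyte content in their differences was not tested, and in RNA of whole monolayers more enterocytes and more RNA per enterocyte cannot be told apart.

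**Figure D4:**
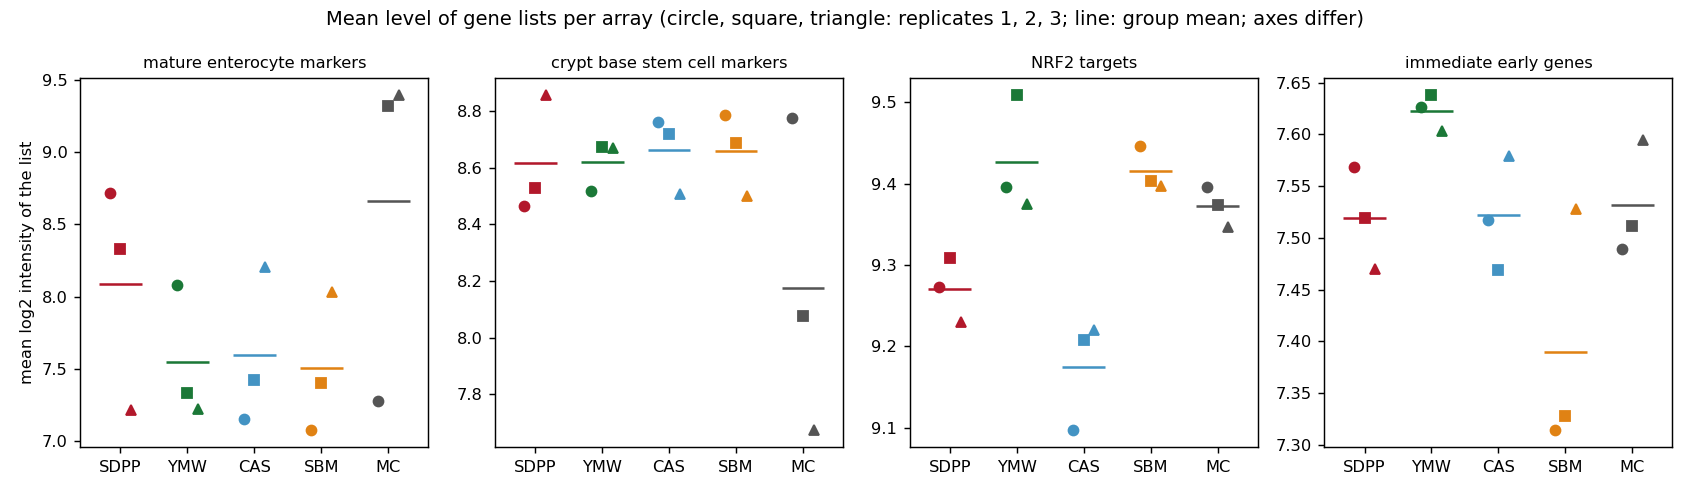
Mean log2 intensity (y axes, which differ) of 4 gene lists in each array of the 5 groups (x axes), with circles, squares and triangles for replicates 1, 2 and 3 and a line at the group mean. The mature enterocyte list spreads within SDPP from 7.21 to 8.72 and overlaps YMW (7.23 to 8.08), while the NRF2 list lies at 9.23 to 9.31 with SDPP and 9.38 to 9.51 with YMW without overlap.

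S100g, the calcium-binding protein calbindin of enterocytes, was at 11.23, 10.77 and 9.60 with SDPP and at 10.03, 9.39 and 9.41 with YMW. SDPP replicate 3 fell among the YMW arrays, and the difference was 0.92 ± 0.38 (SE) at an unadjusted p of 0.03. The call ended with the MC arrays in the fit and without any 1 of SDPP replicate 1, SDPP replicate 2, YMW replicate 2 and YMW replicate 3, at differences of 0.58 to 0.82. Slc6a19, the main apical carrier of neutral amino acids, was at 4.47, 4.05 and 3.52 with SDPP and at 3.41, 3.22 and 3.09 with YMW. Its groups did not overlap, but 4 of these 6 arrays were below background, and the difference was 0.77 ± 0.18 (SE) at an unadjusted p of 0.000776. That call ended without SDPP replicate 1 (0.55) and with the MC arrays in the fit. Vil1, the microvillus protein villin, differed by 0.28 ± 0.13 (SE, unadjusted p 0.0463). Alpi, Apoa4 and Sis, the standard markers of absorptive cells, had differences of 0.33 ± 0.28 (SE), 0.35 ± 0.40 (SE) and 0.63 ± 0.50 (SE) and did not pass the test.

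Cyp2c68, a cytochrome P450, was at 5.07, 3.87 and 3.75 with SDPP and at 3.67, 3.61 and 2.86 with YMW. SDPP replicate 1 thus stood apart and the other 5 values were below background. Cyp2c68 counted as above background by its mean over the whole series, which includes MC replicates 2 and 3 at 6.33 and 6.15. Its difference of 0.85 ± 0.32 (SE, unadjusted p 0.0202) was 0.43 without SDPP replicate 1 and 0.59 without YMW replicate 3, both short of the threshold, and as a member of a family of near copies its signal may hold that of its neighbours. Among the genes past the threshold, 3 were above 2-fold. They were Prl2c5, a prolactin family gene, at 1.35 ± 0.48 (SE), Slc37a2, a sugar phosphate exchanger, at 1.02 ± 0.36 (SE), and Slc13a1, a sulfate carrier, at 1.01 ± 0.43 (SE). Prl2c5 was at 6.67, 6.03 and 4.66 with SDPP and at 4.99, 4.16 and 4.15 with YMW, and Slc37a2 was at 6.37, 5.97 and 4.65 against 4.91, 4.50 and 4.53. Both had SDPP replicate 3 inside the YMW range and the first 2 SDPP arrays above it.

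Mettl7b, a methyltransferase, Ugt2a3 and Akr1c14, which conjugate and reduce steroids and other small molecules, Chp2, a partner of sodium and proton exchangers, Cracd, a regulator of actin capping, Sgk2, a kinase related to Sgk1, and Rdh9, a retinol dehydrogenase, followed with differences from 0.63 ± 0.17 (SE) for Rdh9 to 0.96 ± 0.35 (SE) for Mettl7b. Each of these 7 and the 3 above 2-fold overlapped between the groups, and they were chosen for naming after their values were seen. Prl2c5, Ugt2a3, Akr1c14 and Rdh9 have close relatives in the genome, which makes their signal uncertain in the same way. The other two of the 18 are predicted genes and are not named. On the YMW side the remaining genes were Prnd, which encodes the prion-like protein doppel, at -0.60 ± 0.23 (SE) with overlap, and Tex24, a testis-expressed gene, at -0.61 ± 0.24 (SE), with a mean below background.

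The first principal component of the 6 arrays, over the genes above background, held 48.8% of their variance and placed them in the order of the enterocyte list. Its scores were 18.3, 10.3 and -13.3 for the SDPP arrays and 8.50, -11.8 and -12.0 for the YMW arrays. The 2 groups did not separate along it (two-sided exact permutation test, p = 0.4 over 20 splits, where the smallest possible p is 0.1). The second component held 16.7%, with SDPP between 4.83 and 7.05 and YMW between -14.4 and -0.55.

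Lipid lists differed among themselves. The triglyceride synthesis and chylomicron list had 25 of 27 positive differences, beside 46.5% of all genes, and a median of 0.34. Its differences ran from -0.08 to 0.96. Its 1 member with an unadjusted p under 0.05 (3.7%, beside 1.97% of all genes) was Gpam, an enzyme that starts glycerolipid synthesis, higher with SDPP by 0.25. The mean level of the list per array was 9.06, 8.79 and 7.98 with SDPP and 8.64, 8.14 and 8.04 with YMW, the order of the enterocyte list again. The cholesterol synthesis list had 18 of 20 positive differences and a median of 0.15. Its 1 member at an unadjusted p under 0.05 (5%, beside 1.97% of all genes) was Mvk, mevalonate kinase (0.28 ± 0.12, SE). The fatty acid synthesis and LXR list had 14 of 21 positive differences and a median of 0.06. Its 2 members at an unadjusted p under 0.05, Fasn and Scd2, were higher with SDPP (9.52%, beside 1.97% of all genes). Arrays did not overlap for 2 of its members higher with SDPP and 2 higher with YMW (beside 3.47% and 5.36% of all genes). The PPAR-alpha and fatty acid oxidation list had 13 of 24 positive differences, a median of 0.02 and 1 member, Plin2, higher with YMW at that p (4.17%, beside 2.99% of all genes). Fasn, fatty acid synthase, was at 9.32, 9.34 and 9.34 with SDPP and at 9.16, 9.14 and 8.88 with YMW. All 3 YMW arrays of Fasn were below the other 12 arrays (0.228% of all genes), whose lowest was CAS replicate 2 at 9.27, and the difference was 0.27 ± 0.09 (SE, unadjusted p 0.00814, adjusted p 0.951).

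The interferon-stimulated list had 26 of 27 positive differences, beside 46.5% of all genes, and a median of 0.20, but no member with an unadjusted p under 0.05. Its mean level overlapped, at 6.67, 6.83 and 6.71 with SDPP and at 6.91, 6.23 and 6.43 with YMW. Cxcl10, a chemokine of this list, was at 7.29, 7.78 and 7.95 with SDPP and at 7.64, 6.73 and 7.06 with YMW (0.53 ± 0.30, SE, unadjusted p 0.0998).

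Chitin is a component of the insect cuticle, so the list of chitinases and chitin-binding genes was examined. Of 9 measured, 3 were higher with YMW (33.3%, beside 2.99% of all genes) at an unadjusted p under 0.05, but 4 of the 9 were above background. Chit1, the macrophage chitinase, was at 3.30, 3.29 and 3.32 with SDPP and at 3.54, 3.58 and 3.97 with YMW, and Chil4, a chitinase-like lectin, at 2.53, 2.55 and 2.51 against 2.53, 2.81 and 2.84, both below or at background. Fibcd1, a chitin receptor, was at 3.73, 4.25 and 3.77 with SDPP and at 4.25, 4.22 and 4.33 with YMW, with overlap (-0.35 ± 0.12, SE). Chia1, the acidic chitinase, was at 3.94 to 4.08 with SDPP and 4.03 to 4.08 with YMW.

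Of the lists for plasma proteins, Tfrc alone of the 23 measured receptors for plasma proteins and growth factors had an unadjusted p under 0.05 (4.35%, beside 2.99% of all genes). Of 17 coagulation, fibrinolysis and protease receptor genes it was Plat alone (5.88%, beside the same 2.99%). The differences were positive for 2 of the 17, beside 46.5% of all genes, with a median of -0.085. Plat, tissue plasminogen activator, was at 9.29, 9.22 and 8.75 with SDPP and at 9.50, 9.47 and 9.55 with YMW, above the other 12 arrays (-0.42 ± 0.16, SE, unadjusted p 0.0198). Dhrs3, a retinal reductase induced by retinoic acid, was at 6.71, 6.47 and 6.47 with SDPP and between 6.91 and 7.12 with YMW, without overlap (-0.46 ± 0.10, SE, unadjusted p 0.00061). Together with Rarb, a retinoic acid receptor (-0.35 ± 0.15, SE), and Stra6, a retinol importer (-0.30 ± 0.10, SE), it made 3 of 21 retinoid handling genes higher with YMW (14.3%, beside 2.99% of all genes), with a median of 0.03 for the list. The differences of the retinoid list ran from -0.46 to 0.86, and none was higher with SDPP at that p. Cyp1a1, the first target of the aryl hydrocarbon receptor, was at 5.74, 5.38 and 4.70 with SDPP and at 4.73, 4.95 and 4.57 with YMW (0.53 ± 0.22, SE), and the SBM arrays were above both at 6.60 to 7.21. Cyp1a1 was the 1 member of the aryl hydrocarbon receptor list of 8 higher with SDPP at an unadjusted p under 0.05 (12.5%, beside 1.97% of all genes). Nqo1 and Aldh3a1, its other members at that p, were higher with YMW (25%, beside 2.99%).

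**Figure D5:**
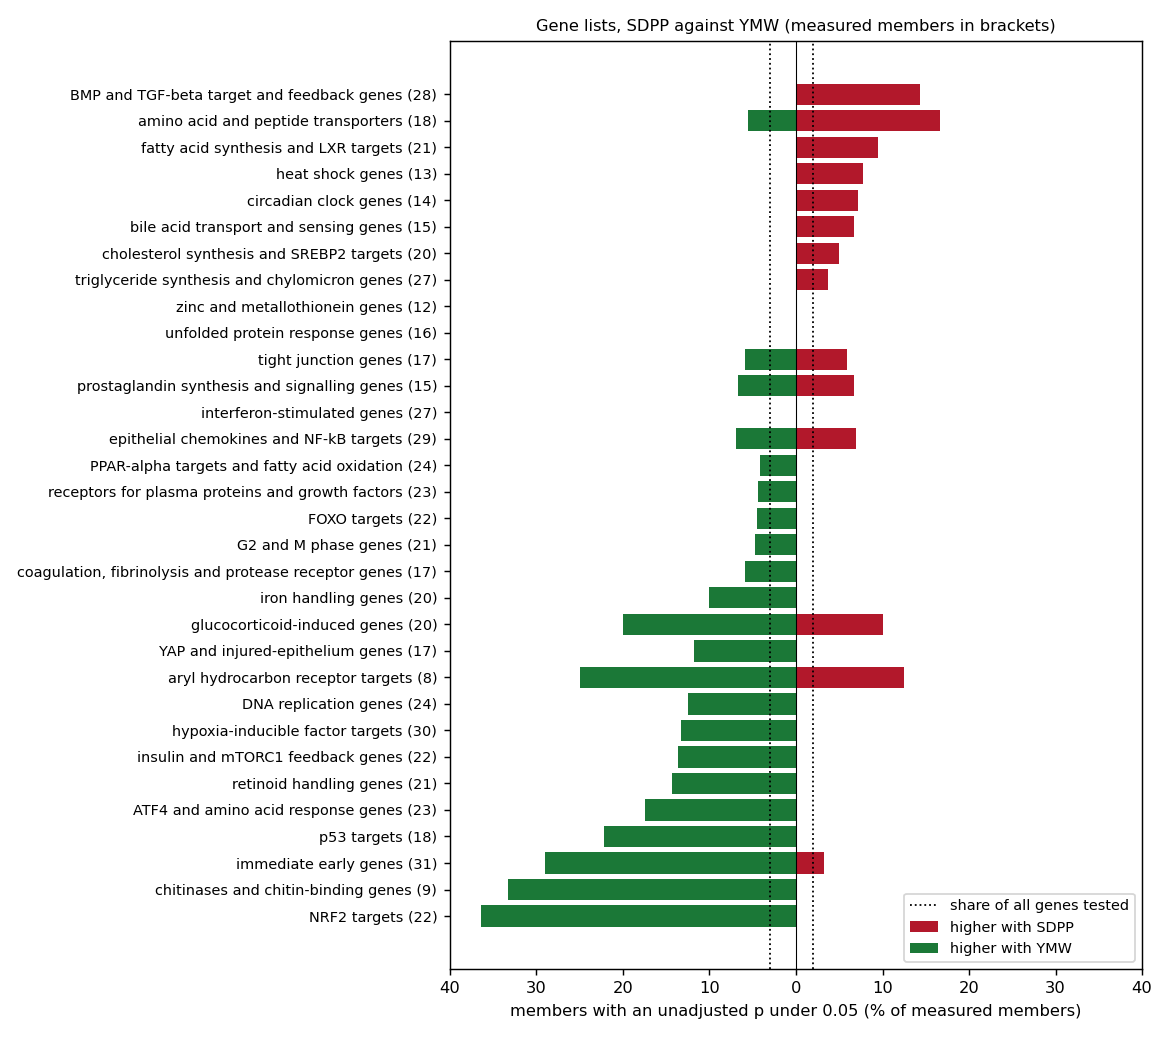
Share of the measured members of each pathway list (y axis, members in brackets) with an unadjusted p under 0.05 (x axis, %), higher with YMW to the left and with SDPP to the right, with dotted lines at the shares over all genes (2.99% and 1.97%). The longest bars to the left are the NRF2 targets (36.4%), the chitin list (33.3%, mostly below background) and the immediate early genes (29%), and those to the right are the amino acid transporters (16.7%) and the BMP and TGF-beta genes (14.3%).

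Across all 41 lists, 82 of the 738 distinct measured genes had an unadjusted p under 0.05, beside 4.96% of all genes, and 9 passed the threshold, beside 0.128%. The 9 are Depp1, Adm, Tfrc, Hilpda, Id1, Id3, Fkbp5, Slc6a19 and S100g. The lists were chosen with earlier results of these data known, among them those for Fkbp5, Id3, Depp1, Adm and Hilpda. Shares above those of all genes are therefore not independent support. Several lists share genes, so their counts are not separate results. Beyond the lists named, Uhrf1, Tk1 and Cdc45 of the 24 DNA replication genes were higher with YMW (12.5%, beside 2.99% of all genes), at -0.25, -0.23 and -0.22, and 3 of the 24 differences were positive, beside 46.5% of all genes. Sox9, a stem and Paneth cell factor, was the single stem cell marker with an unadjusted p under 0.05 (5.88%, beside 1.97% of all genes), higher with SDPP (0.39 ± 0.15, SE). Insm1 and Atoh1, factors of secretory cells, were higher with SDPP by 0.34 and 0.28. At that p, 1 of 25 enteroendocrine markers was higher with SDPP and 1 with YMW (4% each, beside 1.97% and 2.99% of all genes). The Paneth list had 1 of 14 each way (7.14%). The goblet list had 1 of 13 higher with SDPP (7.69%), none with YMW and a median of -0.02.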

How the data were processed

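RNA of duodenal organoid monolayers was measured on Affymetrix mouse gene 1.1 ST arrays, 3 per group. The intensity values were deposited by the authors on a linear scale after RMA, which corrects background, quantile normalizes arrays and summarises the probes of a probe set. Its version is not given in the sources used here. Quantile normalization gives all arrays 1 distribution, so a shift of all genes could not be seen. Arrays give no counts, and their number limits the precision.

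The log2 of each value was taken. Of 35556 probe sets, 21218 had 1 gene symbol in the platform annotation, 1881 had several and 12457 none, which gave 18820 genes, each read from its brightest probe set on average. The tests used limma 3.58.1 (R 4.3.3), whose prior variance followed intensity, in 1 fit of 4 group means to the 12 SDPP, YMW, CAS and SBM arrays. The MC arrays were left out of the fit because they spread more, with a median SD within the group of 0.16 against 0.11 in each of the others. The fit was tested on simulated data.

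The members, the 41 gene lists, the motifs and the tests were chosen with earlier results of these data known. Of 856 list entries, 785 were measured. Lists are described by counts and medians, with no set test. Named were up to 15 genes each way past the threshold, above background by the mean of all 15 arrays and without overlap between the groups. Up to 5 members of a list past the threshold were named too, and so were Fkbp5, Id3, Depp1, Adm, Dusp1, Ddit4, Ier3 and Hilpda. For lists with no member past it, the plan was to name the 2 largest differences, but this was not followed throughout. Other named genes were chosen after their values were seen. Of 14 genes looked up among the RefSeq promoters, 12 had a window. Same-numbered SDPP and YMW replicates did not deviate together throughout, with correlations of -0.15 to 0.46, so the numbers were not taken to pair the arrays.

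The alternatives were all 15 arrays, the 6 arrays alone, the replicate number as a block, 1 prior variance, an intensity-based moderated statistic, a filter on background, median centring, a second quantile normalization, array weights, the mean of all probe sets, other fold thresholds and the omission of each array.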

Additional observations from a re-analysis of the deposited data

How the results depend on the processing

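The count of 24 genes past the threshold was 10 with all 15 arrays (all 10 among the 24, 50% higher with SDPP in place of 75%), 75 with array weights (21 of the 24, 93.3% higher with SDPP), 933 without a minimum on the fold change and 0 at a log2 fold change above 1.5. Leaving out 1 array gave 19 to 193, with 193 without SDPP replicate 3 and 89 without YMW replicate 1. Without SDPP replicate 1 it was 19, of which 5 were among the 24. The count at an unadjusted p under 0.05 was 754 to 1447 on leaving out 1 array, highest without SDPP replicate 3. List genes past the threshold were 9, 23 with array weights and 6 to 56 on leaving out 1 array, with 56 without SDPP replicate 3 and 28 without YMW replicate 1. With the replicate number as a block, 21 genes passed the threshold, all among the 24. Of 18 same-numbered pairs among the 4 protein sources, 4 had a correlation over 0.1, and 1 of 12 arrays correlated best with its own number. No gene reached an adjusted p under 0.05 in any of these fits. Over 16 alternatives, none of the 14 genes looked up among the promoters changed direction. Of their calls, 190 were the same, 29 were lost and 4 gained. Signal near background limits what can be seen for Slc6a19, Cyp2c68, Tex24 and the chitin genes. The cause of these changes was not tested.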

Other observations

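Some further genes differed between the groups. All were chosen after their values were seen, and none reached an adjusted p under 0.05 in limma. Tnfsf13b is in the chemokine and NF-kB list, with 2 of 29 members each way at an unadjusted p under 0.05 (6.9%, beside 1.97% and 2.99% of all genes). Tnfaip2 is in the YAP and injured-epithelium list, with 2 of 17 higher with YMW (11.8%) and none with SDPP. Cd68 is in the immune list, with 1 of 10 each way (10%). Tnfsf13b, the B cell survival factor BAFF, was at 6.30, 6.37 and 6.30 with SDPP and at 5.99, 5.74 and 5.76 with YMW, a difference of 0.49 ± 0.09 (SE) at an unadjusted p of 9.11e-05 and an adjusted p of 0.214. The CAS arrays were far above both, at 7.24 to 7.35, and the SBM arrays lay between 5.93 and 6.08. Gpx1, the main cytosolic glutathione peroxidase, was higher with SDPP, at 10.67, 10.54 and 10.35 against 10.12, 10.08 and 10.19 (0.39 ± 0.09, SE, unadjusted p 0.0012).

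Cd68, a lysosomal glycoprotein best known from macrophages, was at 6.11, 6.12 and 5.72 with SDPP and at 6.63, 6.58 and 6.42 with YMW, and its YMW arrays were above the other 12 arrays of the series (-0.56 ± 0.13, SE, unadjusted p 0.000642). Other immune markers did not follow it, since the mean level of that list was 3.95 to 4.09 with SDPP and 4.04 to 4.12 with YMW, and 4 of its 10 measured genes were above background. Tnfaip2, a TNF-induced gene with a role in membrane protrusions, was at 6.15, 6.14 and 6.03 with SDPP and at 6.62, 6.90 and 6.43 with YMW (-0.54 ± 0.12, SE, unadjusted p 0.000691), again above all other arrays. Smtnl2, a smoothelin-like protein, differed by -0.45 ± 0.08 (SE, unadjusted p 8.21e-05) in the same way. Crct1, a gene of the epidermal differentiation cluster, was at 5.88, 6.02 and 6.13 with SDPP and at 6.45, 6.74 and 6.52 with YMW, while MC replicate 1 was at 6.44 and MC replicates 2 and 3 were at 4.57 and 4.46.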
